A study of Danio rerio with 6 samples.

Results

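Transfer RNA reads of the zebrafish 1-cell embryo were compared with those of the mature egg, the step that spans fertilisation. The comparison used 2 of the 6 libraries of a tRNA sequencing series, labelled 1cell (whole embryos at the 1-cell stage) and egg (mature eggs). Both came from wild-type fish of the TU strain, and each was 1 library made from about 50 to 100 pooled eggs or embryos. The other 4 libraries (256cell, sphere, shield and 24hpf, the last from 24 hours after fertilisation) had the same genotype and strain. Their purpose here was to show where the egg and 1cell libraries stood among all stages. RNA of 60 to 120 nt was cut from a gel, deacylated, end-repaired and treated with ALKB demethylases before sequencing. The labels do not say whether eggs and embryos came from the same parents.

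tRNAs carry amino acids to the ribosome and read codons through 3 anticodon bases. After transcription, an enzyme adds the bases CCA to the 3′ end, where the amino acid is attached, and other enzymes modify many bases. A34, an A at the first anticodon base, is usually deaminated to inosine, which is read as G in sequencing. The egg holds a maternal store of tRNAs, mitochondria and mRNA, and the embryo's own genome is broadly transcribed only at blastula stages. Mitochondria encode their own 22 tRNAs.

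In the cytoplasmic table, 38 labels (an amino acid with its anticodon) covered 3021 read sequences, each 60 to 95 nt long. The mitochondrial table listed 22 genes. Values were in RPM (reads per mega-read, that is, divided by all reads of the library), and every value corresponded to a whole number of reads. The 1cell library held 6094181 reads and the egg library 7096801, so that 3 reads, the floor used here, were 0.492 RPM at 1cell and 0.423 RPM in egg. Of the 3021 sequences, 2966 had reads in both libraries, 23 had none at 1cell and 49 had none in egg, with 17 absent from both. With 1 library a stage there is no spread between replicates and no test. Intervals are 95% intervals for counting error only, and no molecular identifiers separate PCR copies of a molecule. A difference of 2-fold (1 on the log2 scale) was counted by size alone.

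Mitochondrial tRNAs took a larger part of the 1cell library than of the egg library, and cytoplasmic tRNA of histidine a smaller one. Mitochondrial tRNAs summed to 235020 RPM at 1cell and 134437 RPM in egg, a ratio of 1.75. They were 35.7% of all listed tRNA reads at 1cell (exact Clopper-Pearson interval 35.7 to 35.8%) and 16.8% in egg (16.8 to 16.9%). The 1cell share of listed reads was the highest of the 6 libraries, the next being 30.0% at 256cell and the lowest 4.81% at 24hpf. By RPM, however, 256cell was slightly above 1cell, with 241621 RPM. Cytoplasmic reads summed to 423167 RPM at 1cell and 664109 RPM in egg. That gap lay in His-GTG, the only abundant histidine label, which had 345533 RPM at 1cell and 591895 RPM in egg, while all other cytoplasmic labels summed to 77635 RPM at 1cell and 72214 RPM in egg, a ratio of 1.08. Reads in neither table were 34.2% of the 1cell library and 20.1% of the egg library, and their part in these shares was not tested. RPM are relative to the library, so these values do not show more mitochondrial tRNA per egg or embryo. In RNA of whole eggs and embryos, more mitochondria, more tRNA in each and fewer other reads cannot be told apart.

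Because His-GTG made up 81.7% of the cytoplasmic reads at 1cell and 89.1% in egg, every other share had room to be larger at 1cell. The scale therefore matters for each anticodon, and both are given. The share of the cytoplasmic table gave log2 ratios (1cell over egg) with a median of 0.94 over 34 compared anticodons, those averaging 10 RPM or more across both libraries. RPM gave a median of 0.29. A trimmed-mean scaling put the median at -0.06, and the share of the table without His-GTG at 0.19. Log2 ratios and the folds of read groups are on the log2(value + 1 RPM) scale, which understates the difference of rare labels. Their counting intervals come from the reads with nothing added.

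By share, 15 of the 34 anticodons (44.1%) were at least 2-fold higher at 1cell and 0 (0%) were at least 2-fold lower. By RPM, 6 (17.6%) were at least 2-fold higher and 2 (5.88%) at least 2-fold lower. With the median ratio set to 0, 5 were higher and 6 lower, so the split between higher and lower depends on the scale. The same 5 labels passed 2-fold higher under all 5 scalings: Arg-CCT, Arg-TCT, Arg-ACG, Asn-GTT and Met-CAT. No label passed 2-fold lower under all of them. Each scaling shifts all labels alike, so the order of the labels is the same under each. Passing all 5 on the higher side thus means only passing the strictest, the trimmed mean, and the 5 are not separate checks.

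**Figure D1:**
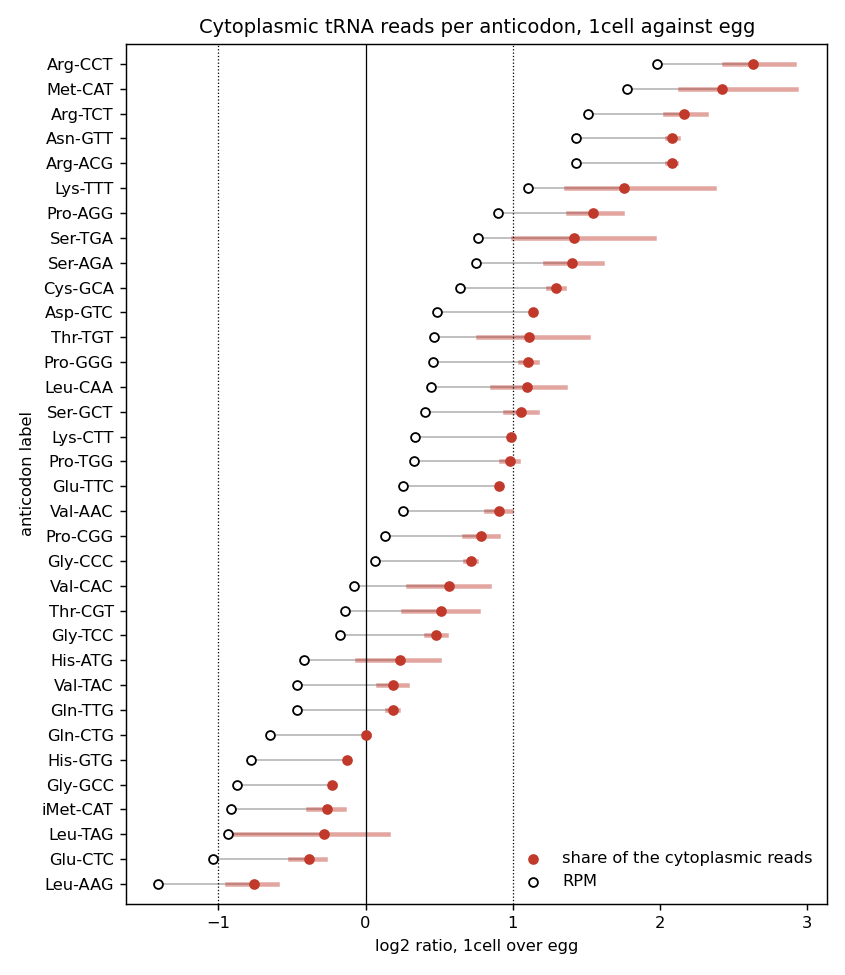
Log2 ratio of 1cell over egg for the 34 compared anticodon labels. Filled points are shares of the cytoplasmic reads with their 95% counting interval as a pale bar, open points are RPM, and dotted lines mark 2-fold. All 3 arginine labels, Asn-GTT and Met-CAT lie right of the 2-fold line on both scales.

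The reads behind the rarer of these labels, and behind the labels at the other end, are shown because their identity decides how the ratios can be read. These single reads need not carry the ratio of their label. The Arg-CCT and Arg-TCT reads had log2 ratios by RPM of 1.05 and 0.94, below the 1.98 and 1.51 of their labels. The Leu-AAG and Glu-CTC reads, at -1.46 and -1.04, were close to their labels (-1.41 and -1.04). Each line is the most abundant read of the label over both libraries, 5′ to 3′, with the 3 bases at the anticodon in capitals.
Arg-CCT: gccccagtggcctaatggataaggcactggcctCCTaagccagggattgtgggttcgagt
Arg-TCT: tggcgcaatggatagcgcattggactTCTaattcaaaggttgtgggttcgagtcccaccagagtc
Lys-TTT: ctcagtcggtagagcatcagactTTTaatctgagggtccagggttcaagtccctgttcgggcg
Met-CAT: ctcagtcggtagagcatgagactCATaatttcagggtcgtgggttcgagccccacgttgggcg
Lys-CTT: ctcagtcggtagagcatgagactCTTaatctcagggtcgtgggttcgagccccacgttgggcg
Leu-AAG: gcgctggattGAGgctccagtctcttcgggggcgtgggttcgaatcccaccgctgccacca
Glu-CTC: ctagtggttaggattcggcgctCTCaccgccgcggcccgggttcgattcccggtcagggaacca

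The Met-CAT read differed from the Lys-CTT read at 2 of 63 positions, and its label had 3 read sequences in all. How the authors' counting kept such near-identical reads apart is not given, so the Met-CAT value is uncertain. All 4 Leu-AAG sequences were read as G at A34, as were all 125 Arg-ACG and all 15 Val-AAC sequences. Labels Ser-TGA, Leu-TAG, Thr-CGT and iMet-CAT held other bases than their label's anticodon in every loop that could be found. For 3 of the 10 iMet-CAT sequences no loop was found. Only loops with T before the anticodon were sought, so a loop with another base there would be missed. These results therefore cannot show that a label, iMet-CAT included, is wrong.

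Arginine tRNAs, which read the AGA, AGG and CGN codons, were higher at 1cell under every label. Arg-ACG, the main arginine label, had 4508 RPM at 1cell and 1673 RPM in egg, a log2 ratio of 2.08 by share (interval 2.05 to 2.11) and 1.43 by RPM. Arg-TCT had 236 RPM at 1cell and 82.0 RPM in egg, with log2 ratios of 2.16 by share and 1.51 by RPM. Arg-CCT had 110.1 RPM at 1cell and 27.2 RPM in egg, with 2.63 by share (2.43 to 2.91) and 1.98 by RPM, the highest of the 34 on both scales. The arginine share of the cytoplasmic reads was 1.15% at 1cell and 0.268% in egg.

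Asn-GTT, the only asparagine label, had 3115 RPM at 1cell and 1154 RPM in egg. Its log2 ratio was 2.08 by share (2.05 to 2.12) and 1.43 by RPM. The 256cell library, with 1038 RPM, was close to egg, but sphere had 2666 RPM, shield 2398 RPM and 24hpf 408 RPM. Met-CAT, the elongator methionine label, had 37.6 RPM at 1cell and 10.3 RPM in egg, from 229 and 73 reads. iMet-CAT, labelled as the initiator tRNA that starts proteins, had 130.6 RPM at 1cell and 246 RPM in egg. Its log2 ratio was -0.26 by share (-0.39 to -0.14) and -0.91 by RPM. It was -1.20 with the median ratio set to 0, -1.02 without His-GTG and -1.26 under the trimmed mean, but 0.28 by share from CCA-ending reads alone, so its size and direction depend on the processing.

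Among lysine labels, Lys-TTT was a single read sequence with 16.9 RPM at 1cell and 7.33 RPM in egg. Lys-CTT, with 15707 RPM at 1cell and 12442 RPM in egg, stood just under 2-fold by share (0.99) and at 0.34 by RPM. Asp-GTC had 18276 RPM at 1cell and 13060 RPM in egg, with 1.13 by share and 0.48 by RPM. Asp-GTC was just over 2-fold by share and Lys-CTT just under it, yet both were well inside 2-fold by RPM. Glu-TTC had 13009 RPM at 1cell and 10899 RPM in egg, with 0.91 by share and 0.26 by RPM. Under the trimmed mean, Lys-CTT stood at -0.01 and Glu-TTC at -0.09, so the direction of these 2 labels depends on the scale.

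Of the remaining labels named as 2-fold higher by share, none was 2-fold higher by RPM. Cys-GCA had 953 RPM at 1cell and 610.1 RPM in egg. Pro-AGG had 105.8 RPM at 1cell and 56.4 RPM in egg. Ser-AGA had 89.9 RPM at 1cell and 53.1 RPM in egg. These 3 labels read cysteine, proline and serine codons. Ser-TGA had 15.8 RPM at 1cell and 8.88 RPM in egg. Thr-TGT had 22.3 RPM at 1cell and 15.9 RPM in egg. Log2 ratios by RPM ranged from 0.46 to 0.90 over these 5 labels, and from 0.40 to 0.46 over Pro-GGG, Leu-CAA and Ser-GCT, which completed the 15.

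The other labels with a lower share at 1cell than in egg, besides iMet-CAT, were leucine, glutamate, glycine and histidine labels. Leu-AAG, from 4 read sequences, had 62.2 RPM at 1cell and 166.7 RPM in egg, with -0.76 by share (-0.94 to -0.60) and -1.41 by RPM. Glu-CTC had 136.9 RPM at 1cell and 282 RPM in egg, with -0.39 by share and -1.04 by RPM. Leu-TAG rested on 42 reads at 1cell and 100 in egg, and its interval by share (-0.94 to 0.15) spanned 0. Gly-GCC had 7507 RPM at 1cell and 13773 RPM in egg, with -0.23 by share and -0.88 by RPM. Gln-CTG had 7052 RPM at 1cell and 11038 RPM in egg, and its share was close in both, at 1.67% at 1cell and 1.66% in egg (log2 0.00). Gly-CCC (1785 RPM at 1cell, 1708 RPM in egg) and Gln-TTG (1322 RPM at 1cell, 1828 RPM in egg) completed the 10 most abundant.

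By the chemistry of the amino acid, the basic group (arginine, lysine and histidine) had the highest median, 1.75 by share over 7 labels, 4 of them 2-fold higher. Those 4 were the 3 arginine labels and Lys-TTT, a single read sequence whose ratio was the median. Lys-CTT, His-ATG and His-GTG were under 2-fold, at 0.99, 0.23 and -0.13 by share. Over all 34 labels, 15 (44.1%) were 2-fold higher by share and the median was 0.94, against which the following counts of few labels are to be read. The summed share of the basic group, nearly all of it His-GTG, was lower at 1cell (86.5%) than in egg (91.3%). The hydroxyl group (serine and threonine) had 4 of 5 compared labels 2-fold higher by share and 0 by RPM, with a median of 1.11 by share. Proline labels had 2 of 4 and a median of 1.04. The branched group (valine and leucine) had 1 of 6 and a median of 0.38. The acidic group had 1 of 3 and a median of 0.91, the amide group 1 of 3 and 0.18, and the sulphur group 2 of 3 and 1.29. The small group had 0 of 3 and 0.48, and neither of the 2 aromatic labels (tyrosine and tryptophan) passed the abundance filter. Summed per amino acid, log2 ratios by share were 2.09 for arginine (4854 RPM at 1cell, 1783 RPM in egg), 1.16 for serine, 1.03 for proline, 0.99 for lysine and 0.88 for glutamate. They were 0.64 for threonine, 0.59 for valine, 0.03 for glutamine, -0.06 for glycine and -0.22 for leucine, so the amino acids ran from well above to slightly below their egg share.

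tRNAs known in other species as sources of 5′ fragments (9 labels of glycine, glutamate, lysine, valine, histidine and aspartate) had a median of 0.71 by share and 0.06 by RPM. Only Asp-GTC of the 9 was 2-fold higher by share. Type II tRNAs, the leucine and serine tRNAs with a long variable arm, had 4 of 6 2-fold higher and a median of 1.08 by share. By RPM 0 of the 6 were 2-fold higher and 1 was 2-fold lower, with a median of 0.43. Grouped by the first anticodon base, the median was 1.15 for A (6 labels), 0.71 for C (11), 1.11 for G (7) and 0.94 for T (10).

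The difference within Arg-ACG was not shared evenly by its reads. Reads were joined into families when they overlapped exactly over at least 50 nt, and families of a label were numbered by their mean RPM. The leading reads of 3 Arg-ACG families show a variable pair of bases near the 5′ end of the read, just before the paired bases that close the anticodon loop. Capitals mark where they differ from the leading family (all variable bases are in capitals in the leading read). Reads were not placed on tRNA genes. Whether such bases differ between genes or are wrong bases in reads was not tested, here or for the labels below.
Arg-ACG family 1: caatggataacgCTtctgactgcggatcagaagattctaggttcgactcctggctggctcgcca
Arg-ACG family 2: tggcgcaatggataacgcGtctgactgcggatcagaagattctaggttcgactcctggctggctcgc
Arg-ACG family 3: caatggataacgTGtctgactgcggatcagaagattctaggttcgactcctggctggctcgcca

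Counted over all Arg-ACG reads, those with CT at this place had 1207 RPM at 1cell and 815 RPM in egg, 1.48-fold higher by RPM. Reads with CA had 407 RPM at 1cell and 215 RPM in egg. Reads with CG had 1987 RPM at 1cell and 400.5 RPM in egg, 4.95-fold higher. Reads with TG had 574 RPM at 1cell and 60.9 RPM in egg, 9.29-fold higher, a log2 ratio by share of 3.87 (3.74 to 4.03). CT reads were thus the largest group in egg, with 48.7% of the label, and CG reads the largest at 1cell, with 44.1%. The TG reads had 53.2 RPM at 256cell, close to their 60.9 RPM in egg, while the CG reads stood at 756 RPM at 256cell and at 2597 RPM at 24hpf.

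The asparagine reads also divided at a pair of bases just before the paired bases that close the anticodon loop. The leading reads of families 1 and 3 are shown for that reason, with the pair in capitals.
Asn-GTT family 1: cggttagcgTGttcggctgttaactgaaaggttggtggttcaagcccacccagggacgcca
Asn-GTT family 3: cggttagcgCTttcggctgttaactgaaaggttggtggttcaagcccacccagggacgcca

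Asn-GTT reads with TG had 2383 RPM at 1cell and 575 RPM in egg, 4.14-fold higher by RPM. Those with CT had 408 RPM at 1cell and 480 RPM in egg, and did not share the difference by RPM. By share, CT reads had a log2 ratio of 0.42 (0.34 to 0.49), against 2.70 for TG reads. TG reads made up 76.5% of the label at 1cell and 49.8% in egg. Of the 5 asparagine families with a mean of at least 100 RPM, 4 were 2-fold higher by share, and the exception was family 3, the leading CT family. Over all labels, 35 of 158 such families (22.2%) were 2-fold higher by share.

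**Figure D2:**
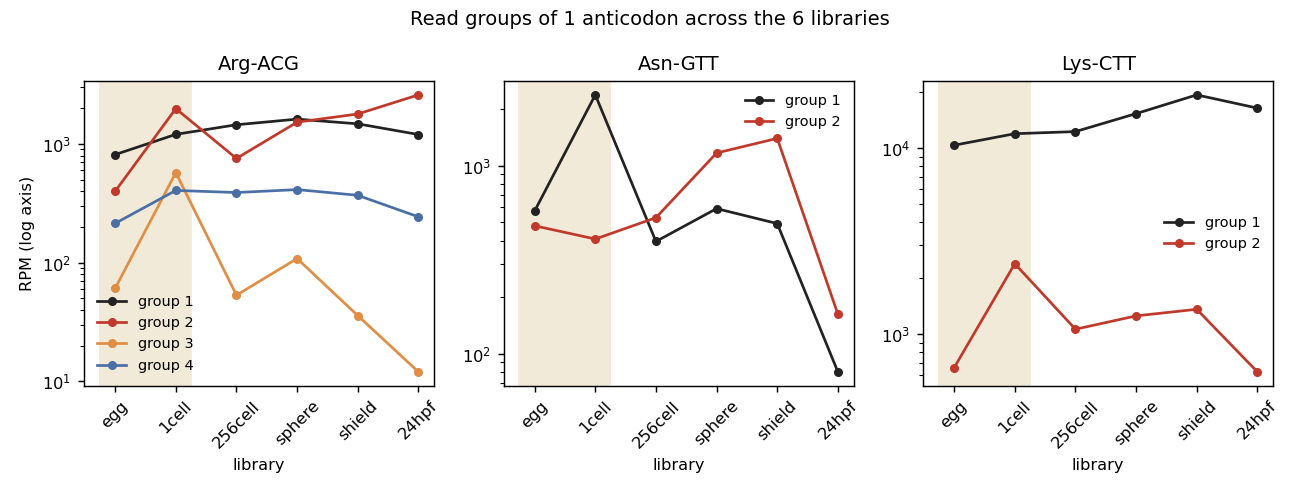
RPM (log axis) of read groups within 3 labels across the 6 libraries in developmental order, with the egg and 1cell libraries shaded. Arg-ACG groups 1 to 4 are the CT, CG, TG and CA reads, Asn-GTT groups 1 and 2 the TG and CT reads, and Lys-CTT groups 1 and 2 the reads with C and with T near the 3′ end. Arg-ACG group 3 and Asn-GTT group 1 peak at 1cell, at 574 and 2383 RPM.

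Lysine, glutamate and aspartate reads showed the same kind of division, and the reads are shown with the variable bases in capitals.
Lys-CTT family 1: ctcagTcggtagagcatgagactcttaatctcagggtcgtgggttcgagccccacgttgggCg
Lys-CTT family 2: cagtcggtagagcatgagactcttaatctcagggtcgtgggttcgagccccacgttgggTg
Lys-CTT family 4: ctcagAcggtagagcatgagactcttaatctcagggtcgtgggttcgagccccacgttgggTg
Glu-TTC family 1: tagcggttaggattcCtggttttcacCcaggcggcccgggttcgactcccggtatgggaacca
Glu-TTC family 4: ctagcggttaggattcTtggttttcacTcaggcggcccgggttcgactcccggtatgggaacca
Asp-GTC family 1: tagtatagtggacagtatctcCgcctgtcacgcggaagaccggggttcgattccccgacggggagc
Asp-GTC family 3: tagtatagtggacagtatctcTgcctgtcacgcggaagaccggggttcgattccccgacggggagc

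Lys-CTT reads with T as the next to last base shown had 2389 RPM at 1cell and 659 RPM in egg, 3.62-fold higher by RPM. Reads with C there had 11944 RPM at 1cell and 10356 RPM in egg, 1.15-fold higher. The T reads were 15.2% of the label at 1cell and 5.30% in egg, and 3.27 to 7.32% in the 4 later libraries. Glu-TTC family 4 had 560 RPM at 1cell and 143 RPM in egg, a log2 ratio by share of 2.61, where family 1 had 6756 RPM at 1cell and 5932 RPM in egg (0.84). Asp-GTC family 3 had 464 RPM at 1cell and 107 RPM in egg (2.76), where family 1 had 15173 RPM at 1cell and 10790 RPM in egg (1.14).

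Over all labels, 341 read sequences had a mean of at least 100 RPM. Of these 64 (18.8%) were 2-fold higher at 1cell by share and 12 (3.52%) 2-fold lower, with a median log2 ratio of 0.31. By RPM, 24 were higher and 69 lower. The 8 highest were 3 Lys-CTT reads of family 2, 2 Arg-ACG reads of family 2, 2 His-GTG reads of family 24 and 1 Asn-GTT read of family 1. The highest, a Lys-CTT read of 62 nt, had 247 RPM at 1cell and 30.6 RPM in egg (log2 ratio by share 3.63, interval 3.46 to 3.88). The 8 lowest, at -3.01 to -1.11 by share, came from Gly-GCC families 5 and 2, His-GTG families 42, 14 and 8, and Asp-GTC family 6. Counted by family, 35 of 158 (22.2%) were higher and 3 (1.9%) lower by share. By RPM 21 were higher and 30 lower, and with the median ratio set to 0, 23 were higher and 22 lower.

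A rare group of Asp-GTC reads came close to being absent from egg. These 14 read sequences share the stretch GTGGAAAG, which no other Asp-GTC read holds, and 13 of them had no read in egg. The leading read of Asp-GTC family 1, shown above, holds GTGGACAG. They had 1009 reads at 1cell and 3 in egg, or 166 RPM at 1cell and 0.423 RPM in egg. The ratio of their shares, here taken without adding 1 RPM, was 615, with a counting interval of 209.7 to 2986. The group was picked after these values had been seen, so the ratio and its interval only describe it. Asp-GTC as a whole had 18276 RPM at 1cell. The later libraries held 10, 1, 3 and 222 such reads from 256cell to 24hpf. At 24hpf these were 36.1 RPM, so no later library came near the 1cell level.

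The 3 families that were 2-fold lower by share were a glycine, a histidine and an aspartate family. The glycine and histidine families each differ from the leading read by 1 base, and are shown with His-GTG family 24. Of 88 histidine families compared, 10 were at least 2-fold higher by share, family 24 among them.
Gly-GCC family 1: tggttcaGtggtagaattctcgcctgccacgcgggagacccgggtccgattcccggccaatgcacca
Gly-GCC family 5: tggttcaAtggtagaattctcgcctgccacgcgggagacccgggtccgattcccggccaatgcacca
His-GTG family 1: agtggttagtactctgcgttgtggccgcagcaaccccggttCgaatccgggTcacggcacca
His-GTG family 24: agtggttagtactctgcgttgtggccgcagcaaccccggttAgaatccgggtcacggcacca
His-GTG family 42: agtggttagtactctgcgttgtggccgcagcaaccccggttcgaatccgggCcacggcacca

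Gly-GCC family 5, a single read sequence, had 19.4 RPM at 1cell and 256 RPM in egg, a log2 ratio by share of -3.01 (-3.35 to -2.80), the lowest of all 341 sequences. It had 243 RPM at 256cell and 5.69 to 23.4 RPM in the last 3 libraries. His-GTG family 42 was high in the same libraries, with 80.4 RPM at 1cell, 605 RPM in egg, 664 RPM at 256cell and 107.8 to 159 RPM later. For both families, the egg and 256cell libraries were high and the other 4 low. Asp-GTC family 6 had 46.1 RPM at 1cell and 304 RPM in egg. His-GTG family 24 went the other way, with a log2 ratio by share of 2.64, and its 63-nt read had 409 RPM at 1cell and 92.7 RPM in egg.

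His-GTG itself was dominated by reads of the same sequence that differ in the base at which they start. The 5 most abundant reads of the whole table were all of this kind. The read of 62 nt had 69068 RPM at 1cell and 148248 RPM in egg, and that of 63 nt had 74193 RPM at 1cell and 123259 RPM in egg. The 65-nt read had 35583 RPM at 1cell and 42853 RPM in egg. Among His-GTG reads ending in CCA, those of 62 nt were 28.2% at 1cell and 33.6% in egg, and those of 65 nt 14.6% at 1cell and 10.3% in egg. The order of the 62-nt and 63-nt reads was thus exchanged, and the mean length of all His-GTG reads was 63.0 nt at 1cell and 62.7 nt in egg.

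The 3′ ends of aspartate tRNA reads differed most between the libraries. Reads are shown that are identical up to the last base before the tail, with the tail bases in capitals.
Asp-GTC with CCA: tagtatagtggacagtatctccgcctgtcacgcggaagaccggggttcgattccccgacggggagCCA
Asp-GTC with CC: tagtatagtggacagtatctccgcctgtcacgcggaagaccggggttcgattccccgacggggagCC
Asp-GTC with C: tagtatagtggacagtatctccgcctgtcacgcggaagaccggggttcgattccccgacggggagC
Asp-GTC with no tail base: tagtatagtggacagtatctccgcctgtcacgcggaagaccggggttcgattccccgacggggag

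Over all Asp-GTC reads, 21.4% ended in the complete CCA at 1cell (21.2 to 21.7%) and 39.1% in egg (38.8 to 39.5%). Reads that lacked the last 2 bases were 64.0% at 1cell and 47.9% in egg. In RPM, Asp-GTC reads with CCA were 3913 at 1cell and 5112 in egg, whereas those that lacked 2 bases were 11702 at 1cell and 6254 in egg. By RPM, the higher level of Asp-GTC at 1cell therefore lay in reads with an incomplete tail. By share, Asp-GTC reads with CCA were also higher at 1cell (log2 ratio 0.26), though less so than those without it (1.50). The later libraries had 17.4 to 21.4% of Asp-GTC reads with CCA, so the egg library stood apart from the other 5. For the read start shown above, all 4 tail forms were higher at 1cell, the CCA form included (414 RPM at 1cell, 228 RPM in egg). The form with C was the largest there in both libraries (3839 RPM at 1cell, 1522 RPM in egg). The lower RPM of CCA reads at 1cell therefore lay in other Asp-GTC reads. Asp-GTC family 6, a 71-nt read ending in CCA, was 1 of them (46.1 RPM at 1cell, 304 RPM in egg). How far the tail difference goes with where reads start was not tested.

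Of the 22 labels with a mean of at least 100 RPM, 18 differed by under 5 percentage points in their CCA share. The exceptions besides Asp-GTC were Val-TAC (50.6% at 1cell, 60.1% in egg), Gln-CTG (83.9% at 1cell, 89.1% in egg) and iMet-CAT, which was higher (32.3% at 1cell, 23.3% in egg). His-GTG had 94.5% at 1cell and 94.0% in egg. Lys-CTT reads mostly lacked the whole tail, with 68.3% missing 3 bases at 1cell and 66.7% in egg. Over all listed cytoplasmic reads 86.4% ended in CCA at 1cell and 90.4% in egg, or 50.3% at 1cell and 61.5% in egg without His-GTG.

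**Figure D3:**
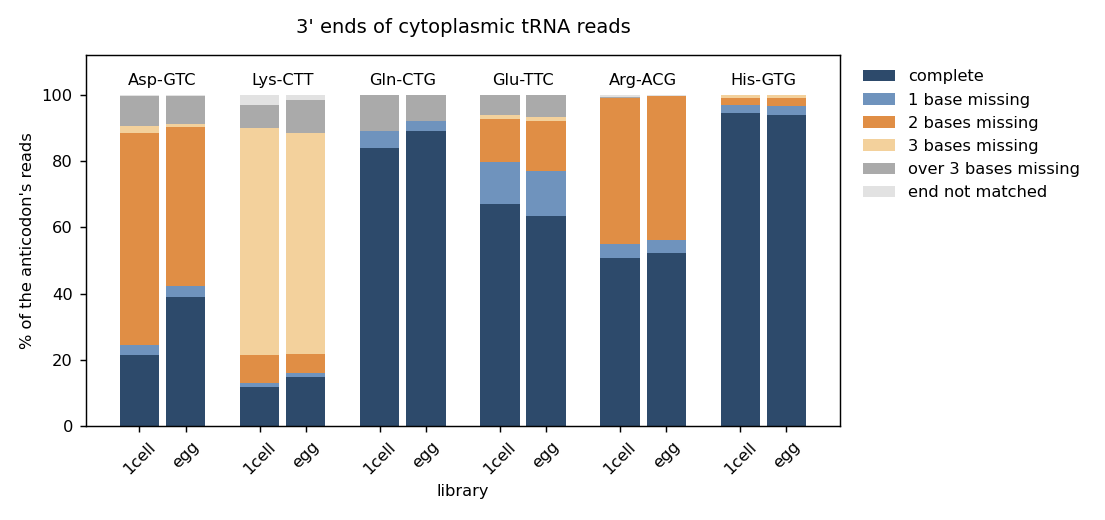
Share of the reads of 6 anticodon labels by the number of 3′ bases missing, in the 1cell (left of each pair) and egg library. Asp-GTC has 21.4% complete ends at 1cell and 39.1% in egg, while His-GTG and Arg-ACG differ by under 2 percentage points.

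Reads of 70 nt or more, which reach nearer to the 5′ end of the tRNA, were 0.850% of the cytoplasmic reads at 1cell and 0.783% in egg. Without His-GTG they were 4.48% at 1cell and 6.92% in egg, so the direction depends on whether His-GTG, whose reads are nearly all shorter, is counted. Among these long reads, Asp-GTC made up 48.2% at 1cell and 67.5% in egg, and Glu-TTC 25.6% at 1cell and 11.1% in egg. Long Asp-GTC reads had 1732 RPM at 1cell and 3507 RPM in egg, so the long aspartate reads were lower at 1cell while all aspartate reads together were higher.

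Position 58 of tRNA, in the T loop, is often methylated to 1-methyladenosine, a mark that ALKB removes in part and that can leave wrong bases in reads. His-GTG reads of 62 nt that end in CCA are shown with each base at this position, the 19th from the 3′ end, in capitals.
His-GTG with A: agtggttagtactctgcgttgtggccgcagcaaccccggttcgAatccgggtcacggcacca
His-GTG with G: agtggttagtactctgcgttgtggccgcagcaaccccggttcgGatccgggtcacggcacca
His-GTG with T: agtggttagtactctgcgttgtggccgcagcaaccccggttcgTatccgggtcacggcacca
His-GTG with C: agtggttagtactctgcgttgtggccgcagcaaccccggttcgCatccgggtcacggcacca

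Of the His-GTG reads ending in CCA, 4.40% had another base than A there at 1cell (4.37 to 4.43%) and 6.41% in egg (6.38 to 6.43%). The 1cell value was the lowest of the 6 libraries, the others lying between 5.21% at 256cell and 6.87% at shield. Gly-GCC had 11.6% at 1cell and 16.8% in egg, Gly-TCC 7.19% at 1cell and 12.4% in egg, and Gly-CCC 1.39% at 1cell and 4.78% in egg. Asn-GTT had 5.87% at 1cell and 6.95% in egg, and Glu-TTC 0.219% at 1cell and 0.420% in egg. Asp-GTC (1.33% at 1cell, 0.697% in egg) and Lys-CTT (0.699% at 1cell, 0.499% in egg) were the 2 of 8 labels with a higher share at 1cell. No such read was listed for 11 of the 19 labels examined. The rule by which reads with mismatches entered the table is not given.

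**Figure D4:**
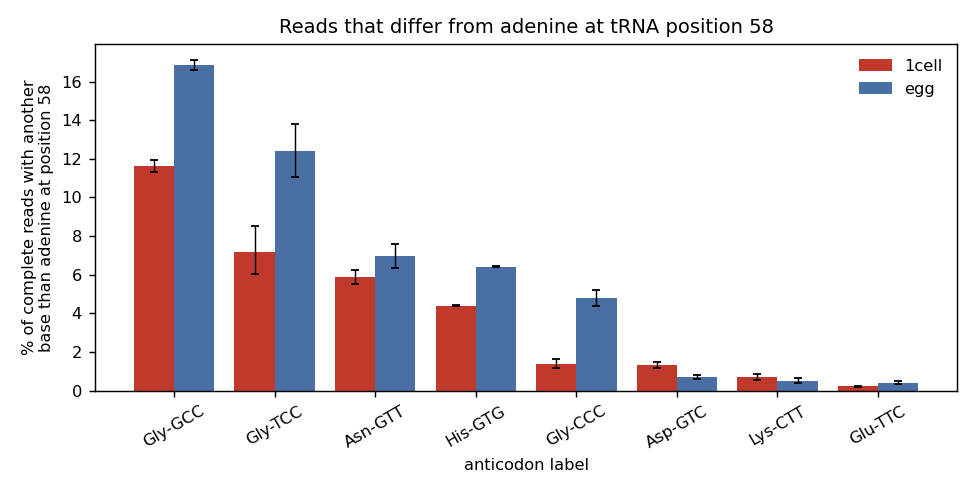
Share of CCA-ending reads with another base than adenine at tRNA position 58, in the 1cell (left) and egg library, for the 8 labels with any such read. Bars start at 0 and error bars are 95% exact binomial intervals for counting error. In 6 of 8 labels the 1cell bar is lower.

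Within the mitochondrial table, a pair of tRNAs exchanged places at the top. trnV, the valine tRNA encoded between the 2 ribosomal RNA genes, had 120478 RPM at 1cell and 42404 RPM in egg, or 51.3% of mitochondrial reads at 1cell and 31.5% in egg. trnL2, a leucine tRNA next to ND5, had 41943 RPM at 1cell and 54187 RPM in egg, or 17.8% at 1cell and 40.3% in egg. In the 4 later libraries trnV held 42.4 to 47.3% and trnL2 at most 28.0%, with 25.3% at 256cell. The 1cell library thus had the highest trnV and the lowest trnL2 share of the 6, and egg the reverse.

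By share of the mitochondrial table, 2 of 22 (9.09%) were at least 2-fold higher at 1cell and 5 (22.7%) at least 2-fold lower. By RPM, 11 (50%) were higher and 0 (0%) lower, because the mitochondrial total was larger at 1cell. trnY had 547 RPM at 1cell and 100.6 RPM in egg, with 1.62 by share and 2.43 by RPM, the highest on both scales. trnF had 489 RPM at 1cell and 137 RPM in egg, with 1.02 and 1.83. trnM had 3922 RPM at 1cell and 1148 RPM in egg, and trnC 642 RPM at 1cell and 192 RPM in egg, with 0.97 and 0.93 by share.

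The 5 that were 2-fold lower by share were trnL2 and the 4 below, and they were also the only ones lower by RPM. trnS2 had 68.3 RPM at 1cell and 104 RPM in egg, with -1.41 by share and -0.60 by RPM. trnP had 687 RPM at 1cell and 881 RPM in egg, with -1.16 by share. trnA had 1363 RPM at 1cell and 1587 RPM in egg, and trnW 895 RPM at 1cell and 1028 RPM in egg, with -1.03 and -1.01 by share. Against the reads of both tables, which were fewer at 1cell, trnA and trnW stood slightly above 0, at 0.0596 and 0.0792, so for these 2 genes the direction depends on the scale.

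The other 12 genes had log2 ratios by share of -0.54 to 0.68. Of these, trnI (1889 RPM at 1cell, 675 RPM in egg), trnT (1238 RPM at 1cell, 466 RPM in egg), trnL1 (8888 RPM at 1cell, 3393 RPM in egg) and trnN (15085 RPM at 1cell, 5909 RPM in egg) were over 2-fold higher by RPM. So were trnE (904 RPM at 1cell, 416 RPM in egg) and trnS1, which had only 29.2 RPM at 1cell and 10.4 RPM in egg. trnR had 22158 RPM at 1cell and 12112 RPM in egg, and trnH 13064 RPM at 1cell and 9196 RPM in egg. trnG had 378 RPM at 1cell and 244 RPM in egg, and trnQ 123 RPM at 1cell and 102.3 RPM in egg. trnK had a log2 ratio of -0.06 by share and 0.75 by RPM. trnD, at 70.2 RPM at 1cell and 49.0 RPM in egg, had a log2 ratio of -0.30 by share and 0.51 by RPM.

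**Figure D5:**
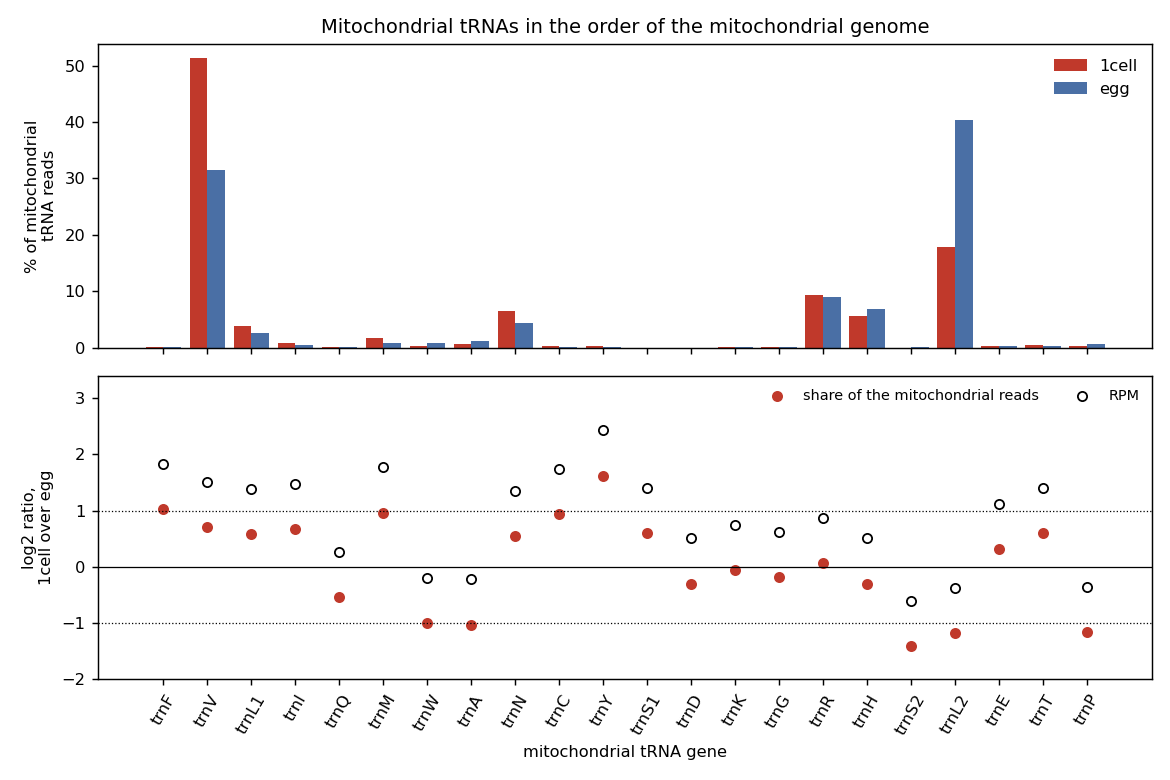
The 22 mitochondrial tRNAs in their order along the mitochondrial genome: share of mitochondrial reads at 1cell (left bar) and in egg (upper panel), and log2 ratio of 1cell over egg by share (filled) and RPM (open) in the lower panel, with dotted lines at 2-fold. trnV is 51.3% at 1cell and 31.5% in egg, and trnL2 17.8% at 1cell and 40.3% in egg.

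Neighbouring mitochondrial genes did not all differ in the same direction, although long precursor transcripts carry them. trnF, trnV and trnL1, set around the ribosomal RNA genes, were all higher, with log2 ratios of 0.58 to 1.02 by share. In the cluster of trnW, trnA, trnN, trnC and trnY between ND2 and COX1, the ratios ran from -1.03 (trnA) to 1.62 (trnY). The group trnD, trnK, trnG, trnR and trnH stayed within -0.30 to 0.07, and trnS2 and trnL2, the neighbours of trnH, were at -1.41 and -1.18. The medians by share were 0.68 for trnI, trnQ and trnM and 0.31 for trnE, trnT and trnP. Light-strand tRNAs had a median of 0.31 by share (7 genes) and heavy-strand tRNAs 0.07 (13 genes), beside 0.19 for all 22, with trnS1 and trnS2 in neither list.

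Set beside the later steps of the series, the step from egg to 1cell held the most labels at 2-fold higher by share, 15 of 34. The 4 later steps held 0, 2, 0 and 2, of 32 to 35 compared. By RPM, 6 labels were 2-fold higher and 2 lower at this step, against 0, 2, 2 and 2 higher and 3, 0, 0 and 7 lower at the later ones. At 2-fold lower by share, the order was 0 at this step and 4, 0, 8 and 10 at the later ones. After the median of each step was set to 0, 11 labels were past 2-fold at this step, and 3, 2, 3 and 7 at the later ones. Neighbouring steps share a library, so a high 1cell value enters both of its steps. All 15 labels that were 2-fold higher at 1cell were lower at 256cell than at 1cell by share and by RPM, 4 of them at least 2-fold by share. Over all 33 labels compared at that step, the median log2 ratio by share was -0.48, so lower shares were general there. The 15 had also been picked for a high 1cell value, which favours a lower value at 256cell. Of the 15, 12 had their highest share of the 6 libraries at 1cell, as had 21 of all 34. For the mitochondrial genes, 7 of 22 were past 2-fold by share at this step, against 0 to 3 at the later ones. By RPM 11 of 22 were past 2-fold at this step, against 1, 0, 16 and 19 at the later ones, so on that scale this step did not stand out.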

How the data were processed

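Total RNA of pooled zebrafish eggs or embryos was size-selected on a gel (60 to 120 nt, while the sample descriptions give up to 100 nt) and sequenced, per the labels' protocols. The submitters' processing notes name cutadapt 3.4, Bowtie2 2.4.2 and GRCz11. The sources used here give neither their settings nor the rules for listing reads and for reads that fit several tRNA genes. Both tables hold RPM as the authors deposited them. All values (100%) were whole multiples of 1 read within 0.01 reads, which gave the library totals. With 1 library a stage, no test was run. All value columns matched a sample.

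RPM were summed per anticodon, per isotype and per mitochondrial gene, and log2 ratios were taken after adding 1 RPM, either as shares of the table's total or as RPM. Anticodons needed a mean of 10 RPM over 1cell and egg, and read sequences 100 RPM. Shares have exact Clopper-Pearson intervals and ratios exact binomial ones at the 95% level, for counting error only. Missing 3′ bases were found by matching the last 25 bases of a read to a CCA-ending read of its label. Anticodons were sought in 7-nt loops closed by 5 pairs, with T before the anticodon. Names and order of the 22 mitochondrial genes came from RefSeq (all 22 matched by name); near-identical tRNA genes cannot be separated. Python 3 with numpy, pandas, scipy and matplotlib was used, and the scripts were tested on simulated data.

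Named anticodons were the 10 most abundant, up to 12 past 2-fold by share each way, otherwise the 5 lowest, and both methionine labels; named reads were the 5 most abundant, 8 highest and 8 lowest. The members and lists were chosen with earlier results of these data known, and the families, read groups, rare Asp-GTC group, read lengths, 3′ ends and position 58 after the values had been seen.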

Additional observations from a re-analysis of the deposited data

How the results depend on the processing

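No paired analysis was possible because each stage has 1 library. The 15 anticodons counted as 2-fold higher by share became 6 by RPM, 5 with the median ratio set to 0, 5 by the share without His-GTG, 5 by trimmed mean, 7 of those averaging 100 RPM or more, 6 of 14 from reads of 70 nt or more and 3 with 256cell in the place of 1cell. The 0 lower became 2 by RPM, 6 with the median ratio, 4 without His-GTG, 6 by trimmed mean and 1 with 256cell. Mitochondrial counts, 2 higher and 5 lower by share, became 11 and 0 by RPM, 13 and 0 by the share of both tables, and 0 and 0 with 256cell, while the higher count became 1 with the median ratio and 1 with 10 RPM added. Read sequences, 64 higher and 12 lower of 341, became 24 and 69 by RPM, and 34 and 37 with the median ratio. Among those averaging 10 RPM or more, a larger set, 547 were higher and 58 lower. As families, 35 were higher and 3 lower of 158. Counts under another filter, read set or library cover other numbers of features and are not like for like. The mitochondrial share of listed reads (35.7% at 1cell, 16.8% in egg) was 23.5% at 1cell and 13.4% in egg of the whole library, and 75.2% at 1cell and 65.1% in egg without His-GTG. The share ending in CCA was 50.3% at 1cell and 61.5% in egg without His-GTG, and that of reads of 70 nt or more 4.48% at 1cell and 6.92% in egg. Of 313 values of single tRNAs, isotypes or reads past 2-fold, taken over the alternatives, 309 had the same direction. The scalings shift all values of a table alike, and the filters and added RPM change large values little or not at all. For those alternatives the direction of a value past 2-fold was nearly fixed in advance, so this count says little. The 4 that reversed were Asp-GTC and with it aspartate from reads of 70 nt or more (-0.49), and trnA (0.0596) and trnW (0.0792) by the share of both tables. The cause of these differences was not tested beyond the scalings themselves. With 1 library a stage, stage and library cannot be told apart, and labels under about 100 reads have wide counting intervals.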
